A study of Gallus gallus with 10 samples.

Results

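Fatty acid activation in chicken abdominal fat was followed through 10 genes. These are the long-chain acyl-CoA synthetases ACSL1, ACSL3, ACSL4, ACSL5 and ACSL6, the bubblegum family synthetase ACSBG2, the fatty acid transport proteins SLC27A1, SLC27A4 and SLC27A6, and the acyl-CoA binding protein DBI. Every probe set that the annotation of the array gives to exactly 1 of these symbols was taken, which gave 22 of 38439 probe sets, for 10 of the 13009 genes with a symbol. ACSL4 had 5 probe sets, ACSL6 4 and ACSL5 3. ACSL1, SLC27A1 and SLC27A4 had 2 each, and ACSL3, ACSBG2, SLC27A6 and DBI had 1 each. Probe sets of a gene are numbered here from the brightest down, by mean log2 signal over the 10 birds.

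The birds were 10 male Arbor Acres broilers aged 49 days, which is 7 weeks, 5 of a fat line and 5 of a lean line bred apart from 1 commercial stock on abdominal fat and very low density lipoprotein. All were reared alike on the same corn and soybean diet with free access to feed and fasted before slaughter, and they were picked for extreme percentages of abdominal fat, so they stand for the ends of 2 populations that have no replicate line. Total RNA of bulk abdominal fat was extracted and its mRNA isolated. Labelled cRNA made from it was hybridized to 1 GeneChip Chicken Genome Array per bird. Birds carry the numbers that the labels give them within a line. The values are MAS5 signals, a linear measure in arbitrary units that the authors scaled to a trimmed mean of 500 on each array.

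A fatty acid that enters a cell has to be joined to coenzyme A before it can be built into triacylglycerol or phospholipid, elongated, or oxidized. Acyl-CoA synthetases carry out this step at the cost of ATP, and the SLC27A proteins couple it to uptake at the cell membrane. The acyl-CoA formed is bound in the cytosol by DBI, and in mammalian fat cells ACSL1 provides most of the long-chain synthetase activity.

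The median signal of an array was 185.8 to 276.2, with the highest in fat line 4, whose mean correlation with the other arrays was 0.819, against 0.865 to 0.884 for the rest. FABP4, which binds fatty acids in fat cells, had 44732 to 57201 in the fat line and 47910 to 52286 in the lean line, so the labelled tissue carried its defining marker in every bird. Of the marker genes of other tissues 0 passed the test, as did 0.0% of all probe sets. The median log2 difference was -1.99 over 13 skeletal muscle genes, 12 of them lower in the fat line, -1.03 over 6 smooth muscle genes, 5 of them lower, and -1.36 over 12 liver genes, 10 of them lower. Neural and macrophage genes were nearer to even, with 5 of 9 and 6 of 10 lower and medians of -0.17 and -0.09. Of 5 red cell genes 3 were lower, with a median of -0.93. Before adjustment, at p under 0.05 by limma, 2 skeletal muscle, 4 smooth muscle, 3 liver, 3 red cell and 1 of 8 intestine genes were lower. In these lists 0 genes were higher at that p, and over all genes 4.6% were lower and 3.33% higher. The summed skeletal muscle signal was 1162 to 37274 in the fat line and 2182 to 134625 in the lean line, and it was highest in lean line 5, lean line 3 and fat line 2. From the hybridization times in the scan headers the arrays were put into 4 groups, with a gap of more than 1 hour starting a new one. These are called wash runs here, but the grouping is inferred and the labels do not name it. Run 1 held fat line 5 and lean line 4, run 2 lean line 1 and lean line 2, run 3 fat line 1 to fat line 3 with lean line 5, and run 4 fat line 4 and lean line 3. The header of lean line 4 alone recorded an aborted step, and every difference in run 1 sets fat line 5 against that array. Fewer cells of a type and less RNA per cell cannot be told apart in bulk tissue, and an array signal includes background, so a low value does not show that a transcript is present.

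By the brightest probe set of each gene, ACSL1 and ACSL4 had the higher mean in the fat line and the other 8 genes the lower, and ACSBG2 came nearest to the threshold among the lower ones. None of them passed the test. Each probe set was compared between the lines by limma on log2 values (two-sided, Benjamini-Hochberg adjusted over the 38439 probe sets). Of the 22 probe sets, 0 passed at an adjusted p of 0.05, as did 0.0% of all probe sets, and SAM also called 0. At an unadjusted p under 0.05, 3 members were higher in the fat line and 1 was lower, where 3.38% of all probe sets were higher and 3.99% lower. The count of higher members lay above that share and the count of lower members close to it, but the 3 come from ACSL1 and ACSL4 alone and probe sets of a gene share its transcript. All 5 fat line birds lay above all 5 lean line birds at 2 members, and 0.705% of all probe sets had this pattern. All fat line birds lay below all lean line birds at 0 members, against 0.687% of all probe sets. In either direction these were 2 of 22 members, against 1.39% of all probe sets.

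In direction, 8 members were higher in the fat line and 14 lower, with a median log2 difference of -0.09, and 44.3% of all probe sets were higher. With the brightest probe set standing for each gene, 2 of 10 genes were higher, with a median of -0.12, against a median of -0.05 over all 13009 genes. The balance between the lines moved with the scaling of the arrays. Of all probe sets at an unadjusted p under 0.05, 1301 of 2835 were higher in the fat line (45.9%), but 1572 of 2535 were (62%) once the arrays were scaled to the same median. Among the members that scaling turned 1 probe set each of ACSL5, SLC27A6 and DBI to the higher side, all of them within 0.1 of no difference.

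**Figure D1:**
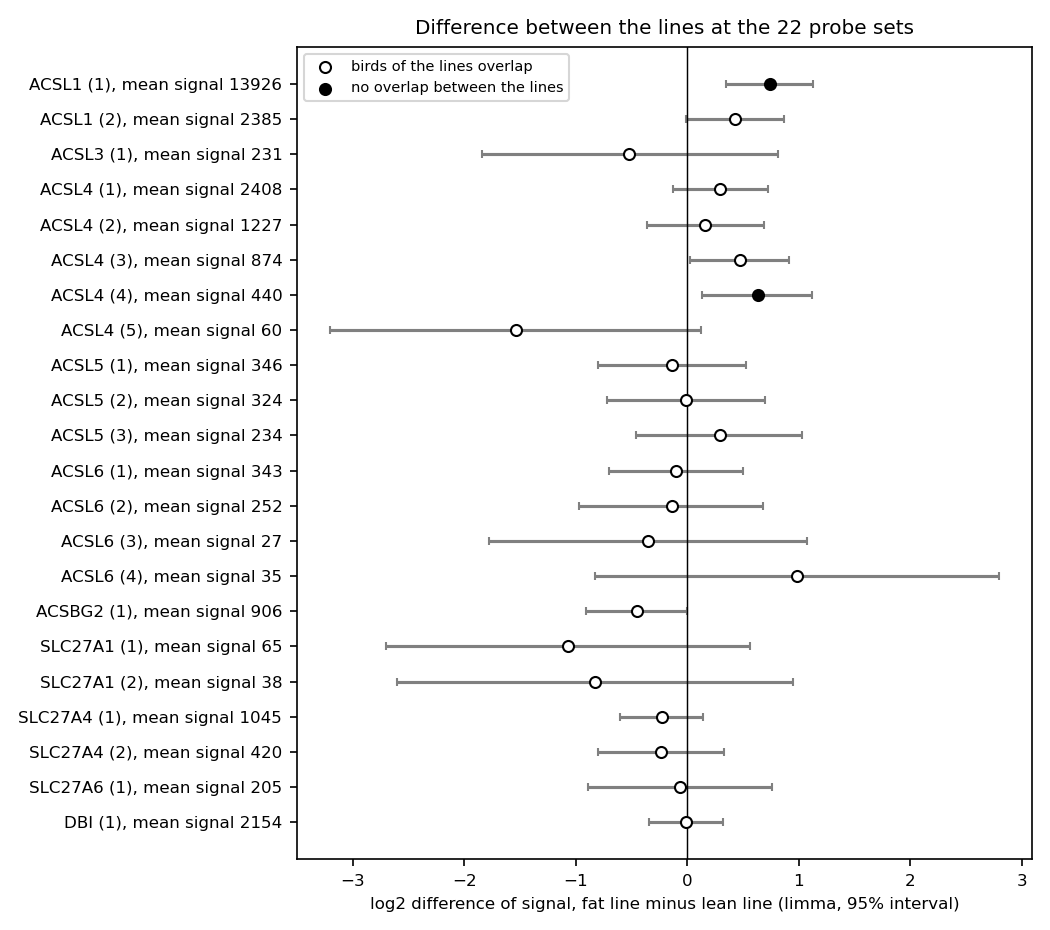
Log2 difference of signal (fat line minus lean line) on the horizontal axis for each of the 22 probe sets, with the 95% interval from limma. Probe sets of a gene are numbered in order of mean log2 signal, and filled points mark the 2 probe sets, 1 of ACSL1 and 1 of ACSL4, at which the birds of the lines did not overlap.

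ACSL1 (gene ID 422547) makes acyl-CoA for triacylglycerol synthesis and for oxidation in mammalian fat and muscle. Its brighter probe set had 19156, 19887, 21693, 14465.5 and 12247 in fat line 1 to 5, against 11480, 12069, 7372, 10025 and 10871 in lean line 1 to 5. Every fat line bird lay above every lean line bird, by a wide margin in fat line 1, 2 and 3 and by little in fat line 5. Fat line birds averaged 17489.5 ± 3963 and lean line birds 10363 ± 1836 (SD, n = 5 each), and the fold between the means of the log2 signals was 1.67. The log2 difference was 0.74 (SE 0.18, 95% interval 0.35 to 1.13), with an adjusted p of 0.319 by limma. The exact permutation test of this probe set gave 0.00794 (two-sided), the smallest p that the 252 labellings of 5 birds against 5 allow. Any probe set without overlap between the lines gets this p, and it was not adjusted over the 22 probe sets.

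The second ACSL1 probe set had 2820, 3175, 3746, 2206 and 1813 in the fat line and 2292, 2693, 1637, 1637 and 1829 in the lean line. Here fat line 4 and 5 lay among the lean line birds, and 3 fat line birds lay above all of them. The log2 difference was 0.43 (SE 0.20), with an adjusted p of 0.684 by limma and an exact permutation p of 0.111. Over the 10 birds both ACSL1 probe sets moved together, with Pearson's r = 0.89 (permutation p = 0.00061, adjusted 0.00447 over 22 pairs of probe sets) and Spearman's rho = 0.87 (permutation p = 0.00212, adjusted 0.022). Without the 2 birds farthest from the median r was 0.82, within scan day 3 it was 0.95, and within the lines it was 0.99 in the fat line and 0.75 in the lean line.

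The difference at ACSL1 was unequal between the wash runs. The highest fat line birds at both ACSL1 probe sets, fat line 1, 2 and 3, were all of run 3. Lean line 5 of that run had 10871 at the brighter probe set, within the 7372 to 12069 of the lean line. The part of the run in these signals was not tested. At the brighter probe set the fat line was higher by 0.29 in run 1, 0.90 in run 3 and 0.97 in run 4, on the log2 scale. As the lines did not overlap there, the direction in each run was fixed and only the size could vary. With the wash run as a block the log2 difference was 0.74 (SE 0.15, adjusted p = 0.267 by limma). It was 1.05 among the 6 birds of scan day 3 and 0.13 among the birds of the first scanner, which were fat line 5 with lean line 1, 2 and 4. The second probe set was higher in the fat line in all 3 runs, by 0.15, 0.82 and 0.43, but its log2 difference was -0.25 among the birds of the first scanner. Leaving out any 1 bird left the brighter probe set between 0.63 and 0.86.

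**Figure D2:**
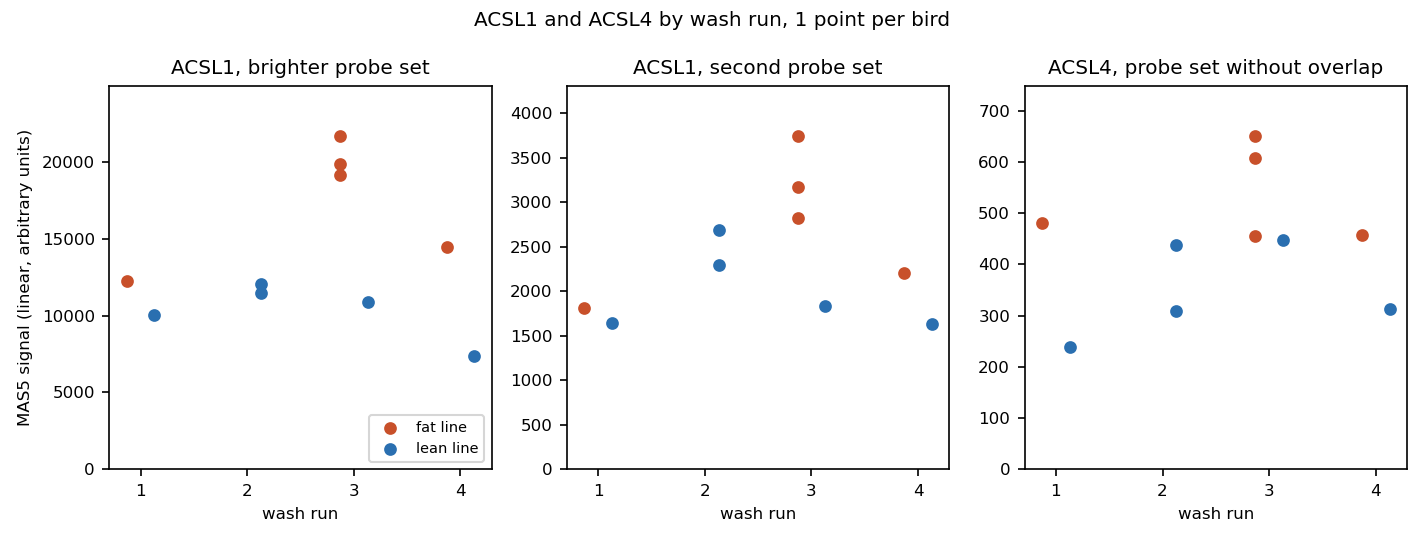
MAS5 signal of each bird (linear, arbitrary units) against its wash run, for both ACSL1 probe sets and for the ACSL4 probe set at which the lines did not overlap. In runs 1, 3 and 4, which hold both lines, every fat line bird lies above the lean line bird of its run in all 3 panels, and run 2 holds lean line birds alone. At the brighter ACSL1 probe set and the ACSL4 probe set the lack of overlap between the lines fixed this in advance.

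Lean line 3 had the lowest ACSL1 signal at the brighter probe set, and it also stood lowest in the adipocyte genes, which lay 0.59 below their mean over the birds on the log2 scale. The adipocyte genes were highest in lean line 1 and 2, at 0.36 and 0.32, where ACSL1 lay at -0.20 and -0.13. ACSL1 and these genes deviated to the same side in fat line 1, 4 and 5 and lean line 4 too. They deviated to opposite sides in fat line 2 and 3 and lean line 1, 2 and 5. The adipocyte list, with FABP4, THRSP and LPL as its brightest genes, summed to 154824 to 190992 in the fat line and 136952 to 171204 in the lean line. Of its 10 genes 6 were higher in the fat line, with a median log2 difference of 0.19. Before adjustment, at p under 0.05 by limma, 3 were higher and 1 lower, against 3.33% and 4.6% of all genes. The part of these genes in the result at ACSL1 was not tested. Without lean line 3 the log2 difference of ACSL1 was 0.63.

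ACSL4 (gene ID 422345) prefers arachidonic acid and other polyunsaturated fatty acids in mammals. Its 4 probe sets with a mean signal over 100 were all higher in the fat line, with a median log2 difference of 0.38, and the fifth was lower. At probe set 4 the signals were 456.2, 651.1, 608.3, 456.7 and 481.7 in the fat line and 309.4, 438.0, 312.0, 239.3 and 448.1 in the lean line. The lines did not overlap, but fat line 1 and 4 stood only just above lean line 5. Fat line birds averaged 530.8 ± 92.1 and lean line birds 349.4 ± 90.4 (SD, n = 5 each), a log2 difference of 0.63 (SE 0.23) with an adjusted p of 0.575 by limma and an exact permutation p of 0.00794. The fat line was higher by 1.01, 0.34 and 0.55 in runs 1, 3 and 4, and by 0.59 with the wash run as a block. That direction and the exact permutation p follow from the lack of overlap.

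ACSL4 probe set 3 had 897.4, 1405, 1216, 714.9 and 867.9 in the fat line and 624.5, 762.3, 663.8, 624.1 and 962.4 in the lean line. All but fat line 4 lay above 4 of the lean line birds, and lean line 5 lay among the fat line. The log2 difference was 0.47 (SE 0.21, adjusted p = 0.666 by limma, exact permutation p = 0.0635), and it was higher in the fat line in 3 of 3 runs.

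The brightest ACSL4 probe set had 2132, 3614, 2586, 1861 and 3134 in the fat line and 1997, 2811, 1607, 1923 and 2411 in the lean line. The lines overlapped through most of their range, with fat line 2 and 5 above all lean line birds. Its log2 difference was 0.29 (SE 0.20, adjusted p = 0.787 by limma). At ACSL4 probe set 2 it was 0.16 (SE 0.24), from 743.2 to 1782 in the fat line and from 774.6 to 1570 in the lean line. In wash runs 1, 3 and 4 the log2 difference was 0.91, -0.14 and -0.06 at probe set 2, so its direction was not kept. At the brightest probe set it was 0.70, 0.17 and 0.21 in these runs.

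The dimmest ACSL4 probe set went the other way. It had 47.0, 33.8, 5.6, 126.4 and 8.9 in the fat line and 60.0, 72.8, 103.0, 46.9 and 97.7 in the lean line, under 100 in 8 birds. Its log2 difference was -1.54 (SE 0.78, adjusted p = 0.714 by limma), and it was 0.06 once signals under 100 were set to 100. Averaged over all 5 probe sets the log2 difference of ACSL4 was 0.00. Of the 4 brighter probe sets, 1 and 2 followed each other over the 10 birds (r = 0.90, permutation p = 0.00058, adjusted 0.00447, rho = 0.94, permutation p = 0.00021, adjusted 0.00462). Probe sets 3 and 4 did so too (r = 0.89, permutation p = 0.00033, adjusted 0.00447, rho = 0.85, permutation p = 0.003, adjusted 0.022). Without the 2 farthest birds r was 0.95 for the first of these pairs and 0.81 for the second, and within scan day 3 it was 0.85 and 0.91. The dimmest ACSL4 probe set had r of -0.56 to -0.45 with the other 4. Over all members, 3 of the 22 pairs of probe sets of a gene had an adjusted permutation p under 0.05 for r, and 8 had r below 0.

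**Figure D3:**
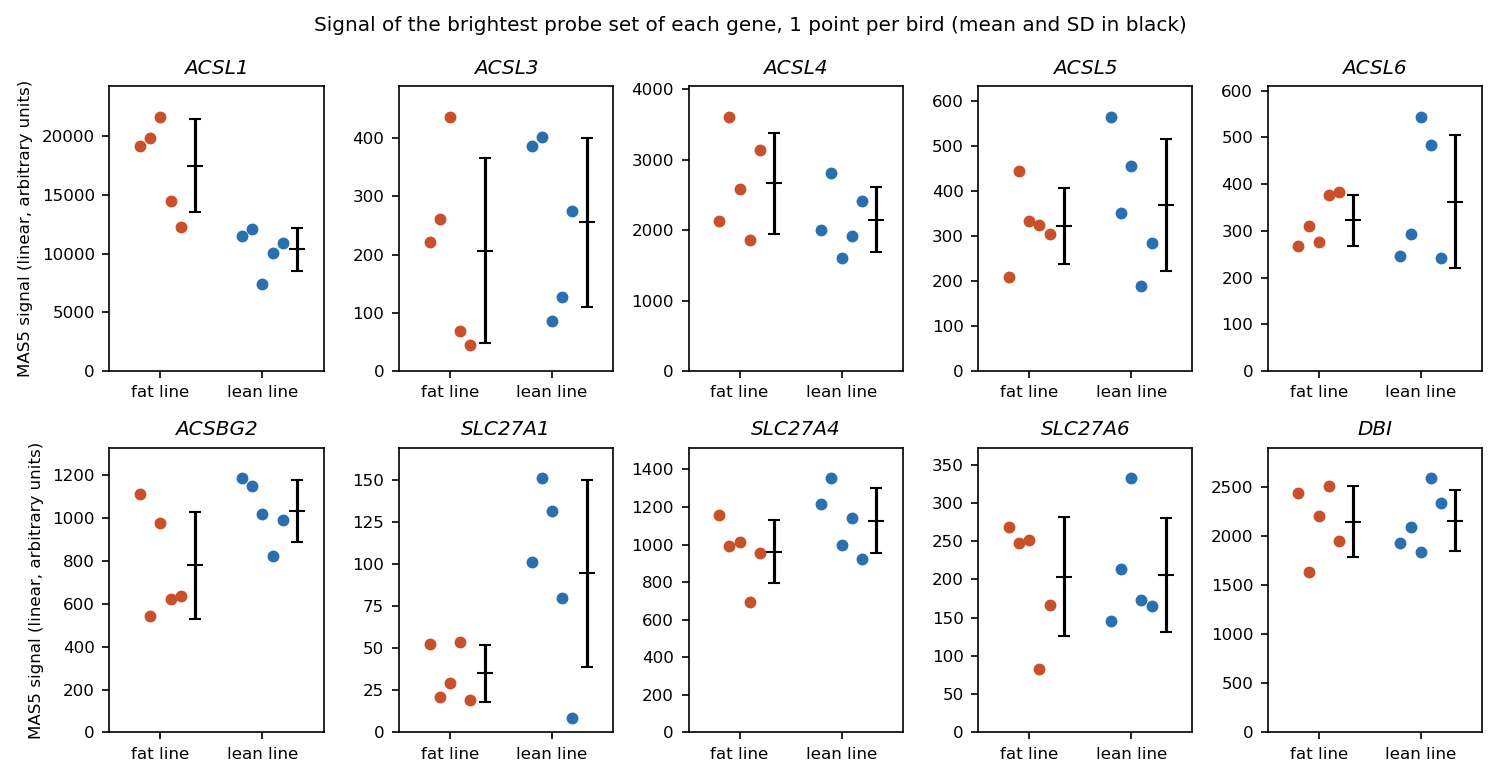
MAS5 signal (linear, arbitrary units) of the brightest probe set of each of the 10 genes, 1 point per bird, fat line left and lean line right, with the mean and SD of the 5 birds in black. ACSL1 is the panel in which the lines do not overlap, with 12247 to 21693 in the fat line and 7372 to 12069 in the lean line.

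ACSL3 (gene ID 424810), a synthetase of the endoplasmic reticulum and of growing lipid droplets in mammalian cells, varied more within the lines than between them. Its probe set had 221.0, 262.1, 437.5, 69.0 and 44.6 in the fat line and 387.0, 403.1, 86.2, 127.0 and 275.0 in the lean line. The 4 lowest birds were those of wash runs 1 and 4, with 44.6 to 127.0, and the 6 birds of runs 2 and 3 had 221.0 to 437.5. The log2 difference between the lines was -0.52 (SE 0.62, 95% interval -1.84 to 0.81, adjusted p = 0.903 by limma) and -0.48 (SE 0.41) with the wash run as a block. It moved with single birds, to -0.08 without fat line 5 and to -0.90 without fat line 3, and it was -0.11 with the scan day as a block. The part of the run in these signals was not tested.

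ACSL5 (gene ID 423896), a synthetase of mitochondria and endoplasmic reticulum known best from mammalian intestine and liver, showed no direction common to its 3 probe sets. Probe set 1 had 208.4, 443.9, 334.3, 323.4 and 303.6 in the fat line and 565.4, 352.0, 455.6, 189.1 and 285.0 in the lean line. The lean line held both the highest and the lowest bird. Over the 10 birds probe set 1 had r = -0.08 with probe set 2 and r = 0.73 with probe set 3 (adjusted permutation p of 0.855 and 0.0593). The log2 differences of the 3 were -0.14 (SE 0.31), -0.01 (SE 0.33) and 0.29 (SE 0.35), with adjusted p of 0.955, 0.998 and 0.905 by limma. At probe set 2 the fat line was lower in 3 of 3 wash runs, with log2 differences of -0.06, -0.72 and -0.71. The difference there was -0.53 (SE 0.28, adjusted p = 0.715 by limma) with the wash run as a block, but 0.43 among the birds of the first scanner. The widest of the 95% intervals, at ACSL5 probe set 3, ran from -0.46 to 1.03.

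ACSL6 (gene ID 416324) is a synthetase of brain and other neural tissue in mammals. Its 2 brighter probe sets had 267.7 to 384.2 and 91.6 to 390.0 in the fat line, against 242.9 to 544.9 and 155.3 to 350.9 in the lean line. At both the ranges of the lines overlapped widely, with log2 differences of -0.10 (SE 0.28) and -0.14 (SE 0.39). The 2 dim probe sets had signals under 100 in 10 and 9 birds, and their log2 differences were -0.35 (SE 0.67) and 0.98 (SE 0.85). At the last of these, probe set 4, fat line 4 had 160.1 and the other fat line birds 5.8 to 49.6. Between the ACSL6 probe sets r over the 10 birds was -0.20 to 0.22. The summed signal of 9 neural genes was 2604 to 3817 in the fat line and 2273 to 3347 in the lean line.

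ACSBG2 (gene ID 420090), of the bubblegum family, activates long-chain fatty acids, and in mammals it is known from testis and brainstem. Its probe set gave 1111, 545.0, 978.2, 624.3 and 635.7 in the fat line and 1187, 1148, 1021, 821.7 and 991.8 in the lean line. Fat line 2, 4 and 5 lay below all lean line birds, and fat line 1 and 3 lay among them. Fat line birds averaged 778.8 ± 249.5 and lean line birds 1034 ± 144.3 (SD, n = 5 each). The log2 difference was -0.45 (SE 0.21, adjusted p = 0.677 by limma, exact permutation p = 0.0794). The fat line was lower in 3 of 3 wash runs, with log2 differences of -0.37, -0.24 and -0.71. It was lower in each of 23 alternatives run, with -0.71 to -0.34 and a lowest adjusted p of 0.514 by limma. Some of these could not change the log2 difference, which stayed at -0.45. They were the other variance priors, the replicate number as a block, the brighter probe sets alone and the floor, which every bird exceeded. All alternatives reused the same birds, so their number does not measure how firm the direction is. The muscle and liver lists also had lower medians in the fat line. By bird, lean line 1 was highest in both ACSBG2 and the liver genes. ACSBG2 and the liver genes deviated to the same side in fat line 2, 4 and 5 and lean line 1 and 5. They deviated to opposite sides in fat line 1 and 3 and lean line 2, 3 and 4. Fat line 2 was lowest in ACSBG2, but its skeletal muscle genes lay 2.22 above their mean over the birds on the log2 scale. The part of these lists in the result at ACSBG2 was not tested.

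SLC27A1, SLC27A4 and SLC27A6 encode the fatty acid transport proteins FATP1, FATP4 and FATP6, which take up long-chain and very long-chain fatty acids and activate them. All 5 of their probe sets had a lower mean in the fat line, and 0 passed. SLC27A1 (gene ID 426008), which responds to insulin in mammalian fat and muscle, had 0 birds above the median of their array at either probe set. Probe set 1 of SLC27A1 had 52.7, 21.0, 29.2, 53.7 and 19.2 in the fat line and 101.4, 151.0, 131.5, 79.8 and 8.4 in the lean line. Here 4 lean line birds lay above the whole fat line and lean line 5 below it, and the log2 difference was -1.07 (SE 0.77, adjusted p = 0.804 by limma). In the wash runs it was -2.06, 1.92 and -1.29, so it was turned in the run that held lean line 5. Without lean line 5 it was -1.82, and with the wash run as a block -0.13. At probe set 2 it was -0.83 (SE 0.83), with 9 birds under 100.

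SLC27A4 (gene ID 417220), known in mammals from intestine and skin, had 1157, 990.3, 1014, 695.7 and 956.3 in the fat line and 1217, 1354, 998.4, 1144 and 920.9 in the lean line at probe set 1. Only fat line 4 lay below the lean line, and the other birds overlapped. The log2 difference was -0.23 (SE 0.17, 95% interval -0.60 to 0.14, adjusted p = 0.814 by limma) there and -0.24 (SE 0.26) at probe set 2. SLC27A6 (gene ID 769933), the heart form in human tissue, had 268.2, 247.2, 251.9, 83.2 and 167.0 in the fat line and 145.0, 213.2, 332.4, 173.3 and 164.6 in the lean line. Its extremes were fat line 4 and lean line 3, both of wash run 4, and its log2 difference was -0.07 (SE 0.39, adjusted p = 0.984 by limma).

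DBI (gene ID 395263), also called ACBP, carries long-chain acyl-CoA between the synthetases and the enzymes that use it. Its signals were 2438, 1639, 2207, 2512 and 1946 in the fat line and 1932, 2090, 1839, 2593 and 2342 in the lean line. The birds of both lines were mixed through the range, and the highest bird had 1.58 times the signal of the lowest, the smallest such ratio among the 22 probe sets. The average was 2148 ± 360.7 over fat line birds and 2159 ± 308.4 over lean line birds (SD, n = 5 each). The log2 difference was -0.01 (SE 0.16, adjusted p = 0.993 by limma), and its 95% interval of -0.34 to 0.32 bounds what these arrays could show.

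**Figure D4:**
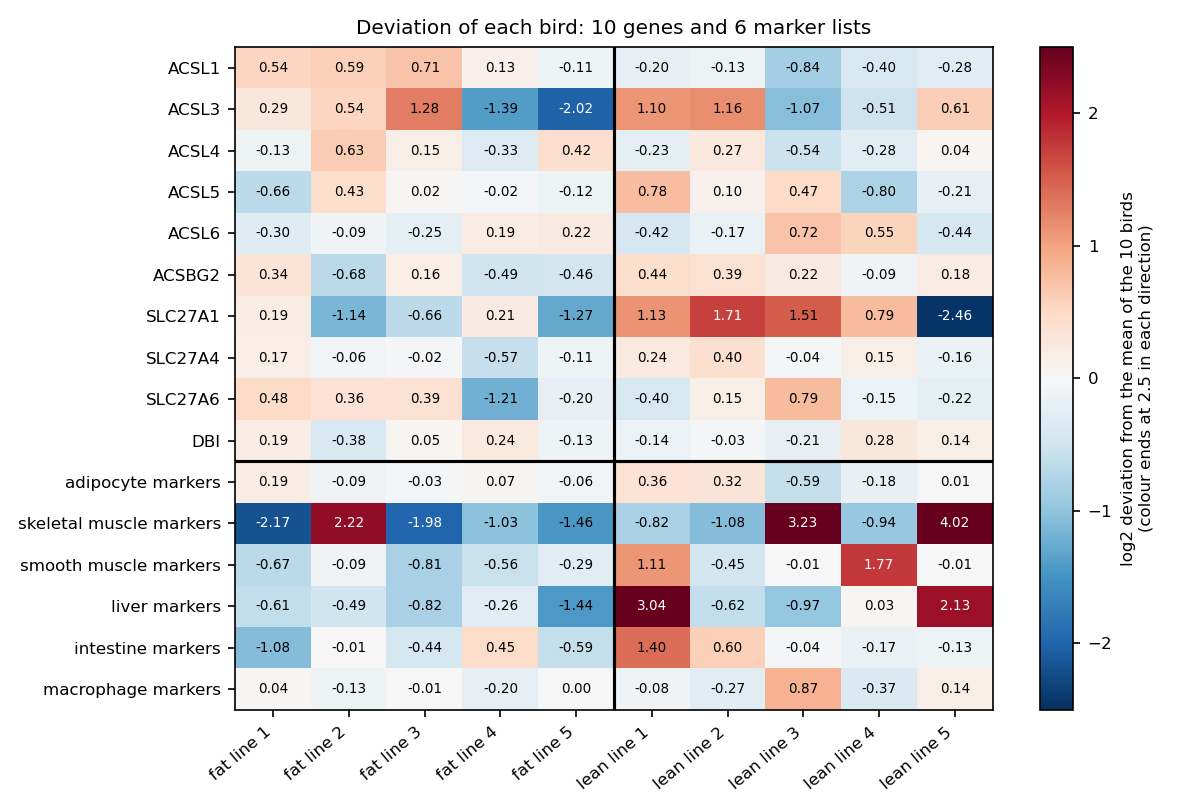
Log2 deviation of each bird from the mean of the 10 birds, for the brightest probe set of each gene and for the mean of 6 marker lists, with fat line birds left of the line and lean line birds right. ACSL1 runs from -0.11 to 0.71 in the fat line and from -0.84 to -0.13 in the lean line, and the skeletal muscle genes are highest in lean line 5, at 4.02.

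The genes whose signals followed a member most closely were sought among 15153 probe sets with a symbol and a mean signal over the median of all probe sets. These are the highest of many correlations over 10 birds that include the difference between the lines, so they are given as a description without a test. For ACSL1 they were PCYT2 (r = 0.974), which makes CDP-ethanolamine for phospholipid synthesis, STON1 (r = 0.965), an endocytic adaptor, and UST (r = 0.963), a sulfotransferase of glycosaminoglycans. Without fat line 4 PCYT2 was chosen again. STON1 and UST kept r of 0.971 and 0.963 without that bird but were not chosen, as other probe sets ranked above them. PCYT2 had 1236 to 2241 in the fat line and 773.3 to 1240 in the lean line, so its lowest fat line bird lay just under its highest lean line bird. For ACSL4 they were TTC14 (r = 0.952), RERGL (r = 0.941) and MPHOSPH10 (r = 0.940), and all 3 were chosen again without fat line 4. For ACSBG2 the closest was SC5D (r = 0.905), an enzyme of cholesterol synthesis, with 433.0 to 1029 in the fat line and 838.1 to 1278 in the lean line. For DBI it was NPTN (r = 0.912), a cell adhesion protein. Over all 10 members, 14 of the 30 probe sets were chosen again without fat line 4.

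Other genes that handle fatty acids or acyl-CoA were read from the same comparison, each by its brightest probe set. Over all 13009 genes, 433 were higher at an unadjusted p under 0.05 (3.33%) and 598 lower (4.6%), and in each of the lists 0 genes passed after adjustment. Among proteins of fatty acid entry and binding, 13 of 13 were measured, with a median log2 difference of 0.06, 2 higher and 1 lower at an unadjusted p under 0.05. CD36, a fatty acid translocase that brings substrate to the synthetases, had 35623, 33803, 31209, 26935 and 32949 in the fat line and 25591, 25291, 22475, 20873 and 26311 in the lean line. The lines did not overlap at CD36, with fat line 4 nearest to the lean line, and the log2 difference was 0.41 (SE 0.14, adjusted p = 0.518 by limma). Lipoprotein lipase (LPL), which frees fatty acids from lipoproteins, had a log2 difference of 0.31 (SE 0.14, adjusted p = 0.666 by limma).

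FABP1, the fatty acid binding protein of liver and intestine, had 47.7 to 111.4 in the fat line and 94.0 to 2201 in the lean line, with the highest signal in lean line 1. Its log2 difference was -2.48 (SE 0.67, adjusted p = 0.357 by limma). Lean line 1 also had the highest mean of the liver genes, 3.04 above the mean of the birds on the log2 scale. It had the highest mean of the intestine genes as well, at 1.40. Of the 12 liver genes 10 were lower in the fat line, and their sum was 3700 to 23737 in the fat line and 6496 to 59506 in the lean line. Of the 8 intestine genes 7 were lower, and their sum was 1437 to 2513 in the fat line and 1442 to 2814 in the lean line. The part of either list in the difference at FABP1 was not tested.

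Of 16 other acyl-CoA synthetases and relatives, 11 were measured, with a median log2 difference of 0.19. ACSF3, the mitochondrial malonyl-CoA synthetase, was the 1 gene of these at an unadjusted p under 0.05, at 125.0 ± 36.9 over fat line birds and 64.5 ± 42.2 over lean line birds (SD, n = 5 each), and its adjusted p was 0.672 by limma. The ACSF3 signals ran from 22.7 to 183.8, all under the lowest array median of 185.8, and the lines overlapped. Thioesterases split acyl-CoA and release the fatty acid. Of these 9 of 14 were measured, with a median of -0.02, and THEM4 had 80.6 to 450.0 in the fat line and 371.0 to 520.9 in the lean line (log2 difference -1.15, SE 0.38, adjusted p = 0.501 by limma). The 5 other acyl-CoA binding proteins had a median of -0.08, 2 higher and 3 lower in the fat line.

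Enzymes that use acyl-CoA were read in the same way. In glycerolipid synthesis 14 of 18 genes were measured, with a median log2 difference of 0.20, 8 higher and 6 lower in the fat line, but the median was -0.02 without lean line 3. DGAT2, which completes triacylglycerol, had 12737, 3610, 12188, 13695 and 7049 in the fat line and 9013, 10717, 1292, 8651 and 2296 in the lean line. It was lowest in lean line 3, lean line 5 and fat line 2, the 3 birds with the most skeletal muscle signal, whose part in the result was not tested. Its log2 difference was 0.89 (SE 0.53, adjusted p = 0.763 by limma). In fatty acid oxidation 19 of 24 genes were measured, with a median of 0.11, 12 higher and 7 lower, and the carnitine acyltransferases CROT (log2 difference 0.42, SE 0.19) and CRAT (0.49, SE 0.23) had adjusted p of 0.670 and 0.677 by limma. In elongation and desaturation 14 of 16 genes were measured, with a median of 0.11, 10 higher and 4 lower. HACD2, a dehydratase of elongation, had a log2 difference of 0.39 (SE 0.18, adjusted p = 0.672 by limma), and SCD, which makes oleic acid, 1.09 (SE 0.54, adjusted p = 0.703 by limma).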

How the data were processed

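Per the labels, the authors derived 1 MAS5 signal for each probe set, on a linear scale and without detection calls, and the deposited arrays are scaled to a trimmed mean of 500 (2% from each end). The methods name another version of the software and normalization to total fluorescence. Of 38535 probe sets, 96 controls were left out. Symbols came from the annotation of the array, with 1 symbol for 27168 probe sets, several for 177 and none for 11094. All 10 member symbols are current in RefSeq by gene ID. Of the 22 members 11 have identifiers ending in _s_at or _a_at, which mark probes shared between transcripts. Both member probe sets at which the lines did not overlap, of ACSL1 and ACSL4, are among these 11.

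Log2 signals were compared with limma 3.58.1 in R 4.3.3 (lmFit, eBayes with an intensity trend, all 10 birds, fat line minus lean line), and single probe sets by an exact permutation test over 252 labellings. The 95% intervals are those of limma. The study dropped 1 fat line bird that is not identified in the labels, so all 10 were used and each was left out in turn. Correlations were tested with 100000 permutations (scipy 1.17.1, numpy 2.4.6, pandas 2.3.3, Python 3.11.15, seed 193). The fit and SAM (delta 0.8, 100 permutations) were tested on simulated data. The number of arrays limits the precision.

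The genes named are all members, up to 3 genes of smallest p in each list of related genes, and the 3 closest probe sets by Pearson's r of members. Lists were described by counts and medians, without a test. The members and lists were chosen with earlier results of these data known. The comparison was repeated with the arrays quantile normalized or scaled to a common median, on the brighter probe sets, with 50 added to every signal or a floor of 100, with other variance priors, with replicate number, scan day or scanner as a block, within 1 scan day or scanner, by SAM, with each bird left out, and on the mean over the probe sets of a gene. The wash run as a block was added after seeing the data, with a gap of more than 1 hour between hybridization times starting a run. Same-numbered birds did not vary together, so the numbers were not taken as pairs.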

Additional observations from a re-analysis of the deposited data

Results flagged for a closer look

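In 44 sets of 5 birds, each a probe set in 1 line, a single bird was looked for that stood apart. Its gap to its nearest neighbor had to be more than 0.71 of the whole range, both taken on log2 signals. The signals below are linear, and the gaps are those of the log2 signals. It was found in 3 of the 44 sets. Chance alone gives it in about 1 set in 20, so the count lay close to what chance gives. At ACSL6 probe set 4, lean line 5 had 53.4 and the other lean line birds 9.0 to 11.5, a gap of 0.862 of the range. At SLC27A1 probe set 1 the same bird had 8.4 and the others of its line 79.8 to 151.0, a gap of 0.779. Both probe sets are dim, and lean line 5 also had the highest mean of the skeletal muscle genes, 4.02 above the mean of the birds on the log2 scale. At SLC27A4 probe set 2, fat line 5 had 224.8 and the other fat line birds 385.6 to 465.4, a gap of 0.742. What sets these birds apart was not tested.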

How the results depend on the processing

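No member was called by limma or SAM under any alternative run. Over all probe sets, limma called 5 among the birds of the first scanner, where fat line 5 alone stood against 3 lean line birds and was assumed to vary as they did, and 0 to 2 with a bird left out (1 when fat line 2 was omitted, 2 when fat line 4 and 2 when lean line 5 was). SAM called 0 with all birds and 0 to 131 with a bird left out, namely 131 with fat line 4 omitted, 12 with fat line 5, 7 with lean line 5, 6 with lean line 4, 5 with fat line 3, 3 with fat line 2 and 2 with lean line 3 omitted. The brighter ACSL1 probe set kept its direction in all 24 alternatives (0.13 to 1.05, lowest adjusted p of 0.19 by limma). Where birds were left out or taken apart by day or scanner, that direction followed from the lack of overlap between the lines. The ACSL1 log2 difference of 0.74 could not change under the other variance priors or with the replicate number as a block. Nor could it on the brighter probe sets alone or with the floor.

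With the replicate number as a block, 0 probe sets and 0 members were called and ACSL1 had 0.74 (adjusted p = 0.416 by limma). The deviations of same-numbered birds correlated at -0.14 to 0.06, so the numbers do not pair the birds.

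Other log2 differences changed sign, all of them uncalled. Among the birds of the first scanner they were -0.25 at the second ACSL1 probe set, 0.43 at ACSL5 probe set 2 and 0.23 at ACSL6 probe set 1. On scan day 3 alone they were 0.41 for ACSL3, -0.15 at ACSL5 probe set 3, 0.34 and 0.03 at ACSL6 probe sets 2 and 3, 0.13 at SLC27A1 probe set 1, 0.37 at SLC27A4 probe set 2 and 0.06 for DBI. With the wash run as a block they were 0.11 at ACSL5 probe set 1 and 0.24 and 0.15 at the same ACSL6 probe sets. With the scan day as a block they were 0.05 at ACSL5 probe set 1 and 0.15 at ACSL6 probe set 2, which had 0.12 with the scanner as a block. Scaling to the same median gave 0.09 at ACSL5 probe set 2, 0.03 for SLC27A6 and 0.08 for DBI, and quantile normalization gave 0.05 at that ACSL5 probe set. The floor of 100 gave 0.06 at ACSL4 probe set 5, and the mean over the probe sets of a gene gave 0.05 for ACSL5 and 0.10 for ACSL6. With a bird left out, ACSL5 ran from -0.35 to 0.04 at probe set 1 and from -0.24 to 0.19 at probe set 2. ACSL6 ran from -0.22 to 0.07 at probe set 1, from -0.35 to 0.18 at probe set 2 and from -0.68 to 0.05 at probe set 3. SLC27A6 ran from -0.20 to 0.23 and DBI from -0.07 to 0.08. The cause was not tested. Of the 30 probe sets closest to a member, 14 were chosen again without fat line 4.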
